A study of Sus scrofa domesticus with 4 samples.

Results

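The genes described here encode the proteasome and the enzymes that attach ubiquitin to proteins or take it off, measured in explants of pig myometrium, the muscular wall of the uterus. They were chosen by symbol alone, as pig genes beginning with PSMA, PSMB, PSMC, PSMD, PSME, UBE2 or UBA, or with USP and a digit, without the immunoproteasome subunits PSMB8, PSMB9 and PSMB10 and the interferon-induced USP18. Described here are 22 genes with 46 probes, out of 3029 genes that could be named on the array. Of these, 13 are proteasome genes, 7 are conjugating enzymes (UBE2) and 2 are deubiquitinases (USP7 and USP51). No activating enzyme is among them, so the first step of the pathway is not represented.

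Cells mark proteins for destruction with chains of the small protein ubiquitin. An activating enzyme (E1) charges ubiquitin, a conjugating enzyme (E2) carries it, and a ligase (E3) directs it to a substrate, while deubiquitinases such as the USP proteins remove it again. The proteasome then degrades the marked protein: its 20S core is a barrel of alpha and beta rings with the cutting sites inside, and its 19S cap recognises ubiquitin, unfolds the substrate with ATPases and feeds it into the core. In muscle, degradation through this pathway is known for its part in the loss of muscle protein.

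Adiponectin is a hormone made mainly by fat tissue, and the series set adiponectin-treated against untreated tissue. The tissue came from 4 mature gilts (Large White x Polish Landrace, aged 7 to 8 months, 120 to 130 kg) on days 15 to 16 of gestation. Explants from the middle of the uterine horns were preincubated for 2 h and cultured for 24 h either with adiponectin at 10 µg/ml or with no addition. Cultures were set up in duplicate in separate experiments, per the labels. Each of 4 Agilent 2-colour arrays held 1 treated and 1 untreated RNA, and the labels tie no array to a gilt, nor do they say that both RNAs of an array came from 1 gilt. A p-value here reflects only how far ratios scatter over these 4 arrays, across all tested probes as well as in the probe itself. Some of that scatter may be technical. An explant holds every cell type of the tissue slice, so fewer cells of a type and less RNA per cell cannot be told apart.

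By the dye fields of the labels, Cy5 carried the treated RNA on arrays 1 and 3, and Cy3 carried it on arrays 2 and 4. The labelling protocol describes treated RNA in Cy5 alone. The dye fields were followed, and the deposited series table ran the same way on all 4 arrays, with a slope of 1 on the turned scanner ratios. The share of spots that exceeded background clearly was 46.1% to 51.0% in Cy3 and 54.9% to 63.1% in Cy5. All 5 of the 9 smooth muscle markers that could be named on the array (ACTA2, DES, CNN1, MYLK and SMTN) were well above background in the control channel of every array. Their ratios ran from -0.91 to -0.33 on array 1 and from 0.48 to 1.58 on array 3. Across the 22133 tested probes, array ratios correlated between -0.31 (arrays 2 and 3, of opposite dye orientation) and 0.25 (arrays 2 and 4). Within an orientation, arrays 1 and 3 were at -0.05. These correlations are across probes, which are not replicates.

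Values below are log2 ratios of treated over control signal, so 0 means no difference and 1 a doubling. The log2 change of a gene is the treatment coefficient of a limma fit with a dye coefficient, over all tested probes, with its standard error (SE) and n = 4 arrays. Limma draws the variance of each probe toward that of all tested probes, here with 3.72 prior and 2 residual degrees of freedom. An SE, interval or p-value is therefore not the scatter of that gene alone. A gene stands for its brightest tested probe. Probes entered the test where at least 3 arrays showed them well above background in one condition, which kept 21 of the 22 genes and 45 of their 46 probes. USP51, a histone deubiquitinase, was well above background on no array in the control channel and on 1 in the treated channel, and has no fitted value.

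No gene of the group passed the test. Limma called 0 of 22133 probes at an adjusted p under 0.05 (percent called 0), with a smallest adjusted p of 0.856, while 839 probes were higher and 425 lower at an unadjusted p under 0.05. Of the proteasome genes, 12 of 13 had a log2 change below 0, with a median of -0.12 and a range from -0.26 to 0.02. Over all 2134 named genes tested, which were not matched in signal, 54.4% were below 0 and the median was -0.02. Of the 7 conjugating enzymes, 5 were above 0, and their median was 0.09. The difference between both groups of genes was not tested. Over all 21 genes the median was -0.08, with 15 below 0, and it moved to -0.06 without array 2 and to -0.05 without array 3. At an unadjusted p under 0.05 in the limma fit, 0 of the 21 genes were lower, where 2.44% of all named genes were, and 0 were higher, where 3.09% were. The smallest unadjusted limma p among them was 0.0938, for UBE2K. Without array 4, only 2 of the 7 conjugating enzymes were above 0 and their median was -0.02. That fit gives array 2 as much weight as arrays 1 and 3 together. By single arrays, 5 of the 7 were above 0 on each of arrays 1, 3 and 4, and 2 of the 7 on array 2. For the proteasome genes the count below 0 ran from 11 to 13 with any 1 array left out.

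**Figure D1:**
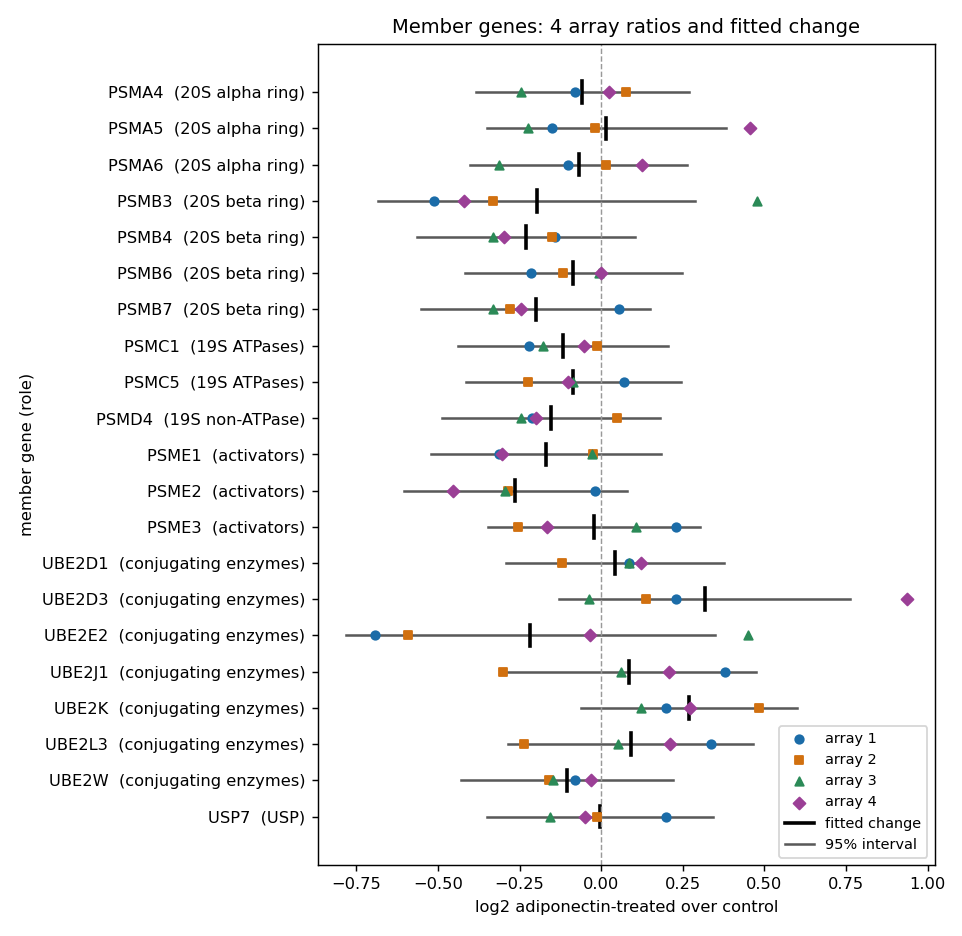
Log2 ratio of treated over control (x axis) of each of the 21 tested genes (y axis, with its role). Symbols are the 4 arrays, the black bar is the fitted change and the grey line its 95% interval. The interval of every gene shown includes 0, and the fitted changes of 12 of the 13 proteasome genes lie left of 0.

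By single arrays, 6 of the 21 genes were below 0 on all 4 arrays: PSMB4, PSMB6, PSMC1, PSME1, PSME2 and UBE2W. Among all named genes, 7.45% were below 0 on every array. UBE2K alone was above 0 on every array, where 5.53% of all named genes were. The other 14 genes had both signs. A ratio on 1 array includes whatever dye bias its probe has. Limma called a dye coefficient at an adjusted p under 0.05 in 0 of the named genes (percent called 0). The smallest unadjusted dye p of the 21 genes in that limma fit was 0.203, for PSME3. The dye coefficient was larger in size than the treatment coefficient in 7 of the 21, and in 1073 of the 2134 named genes.

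The alpha ring of the 20S core, which forms the gate of the barrel, was represented by PSMA4, PSMA5 and PSMA6. PSMA4 stood at -0.08, 0.08, -0.25 and 0.02 on arrays 1 to 4, PSMA5 at -0.15, -0.02, -0.22 and 0.46, and PSMA6 at -0.10, 0.02, -0.31 and 0.12. All 3 genes were lowest on array 3 and below 0 on array 1. Their log2 changes were -0.06 ± 0.13 (SE), 0.02 ± 0.15 and -0.07 ± 0.13, each smaller than its SE. The dye coefficient was larger than the treatment coefficient in each of them, and the lower arrays, 1 and 3, were those with treated RNA in Cy5.

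The beta ring carries the cutting sites and lay lowest within the core, with a median of -0.20 and 4 of 4 genes below 0. PSMB4, a structural beta subunit, was at -0.14, -0.15, -0.33 and -0.30, below 0 on every array. Its log2 change was -0.23 ± 0.13, or 0.853 of the control level, with a 95% interval from -0.56 to 0.10 (limma adjusted p = 0.863). PSMB6, the catalytic subunit with caspase-like activity, was at -0.22, -0.12, -0.01 and -0.0010, and its log2 change was -0.08 ± 0.13. PSMB7, the catalytic subunit with trypsin-like activity, was at 0.06, -0.28, -0.33 and -0.25, and its log2 change was -0.20 ± 0.14. For PSMB7 the one positive array was array 1. No probe could be named for PSMB5, the other catalytic subunit.

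PSMB3, another structural beta subunit, had other signs from array to array than the brightest probes of the other beta genes. It stood at -0.51, -0.33, 0.48 and -0.42, so that array 3 alone was positive. Dimmer probes of PSMB6 (-0.50, -0.19, 0.06 and -0.22) and of PSMD4 (-0.44, -0.18, 0.08 and -0.02) had the same signs. The log2 change of PSMB3 was -0.20 ± 0.20, and it moved to -0.44 without array 3 and to 0.05 without array 1. UBE2E2, a conjugating enzyme, had the same signs, at -0.69, -0.59, 0.45 and -0.04, and its other probe read -0.59, -0.61, 0.39 and -0.25. Its log2 change was -0.22 ± 0.23, moving to -0.50 without array 3 and to 0.07 without array 1. Without array 3 both genes were lower at an unadjusted p under 0.05 in the limma fit, where 7.69% of all named genes were, and the smallest member adjusted p was 0.443. That is 2 of 21 members, near the share of all named genes.

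The smooth muscle markers had medians of -0.66, -0.10, 0.95 and -0.25 on the 4 arrays. Of the 5, ACTA2, CNN1 and SMTN had the signs of PSMB3 and UBE2E2, below 0 on arrays 1, 2 and 4 and above 0 on array 3, while DES was at 0.10 on array 4 and MYLK at 0.30 on array 2. By the brightest probe of each gene, the same signs were found in 13.4% of all named genes and in 2 of the 21 members (9.52%). They were also found in 3 of the 20 other pathway genes tested, KEAP1, OTUB1 and URM1. The summed signal of the 5 markers ran from 17.3 to 18.5 in the control and from 17.6 to 18.4 in the treated channels (log2 of processed signal). Control signals over the 4 arrays ran from 7.76 to 9.09 for PSMB3 and from 7.08 to 8.37 for UBE2E2. The part of the muscle markers in these 2 genes was not tested. The pair was singled out after its values were seen.

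**Figure D2:**
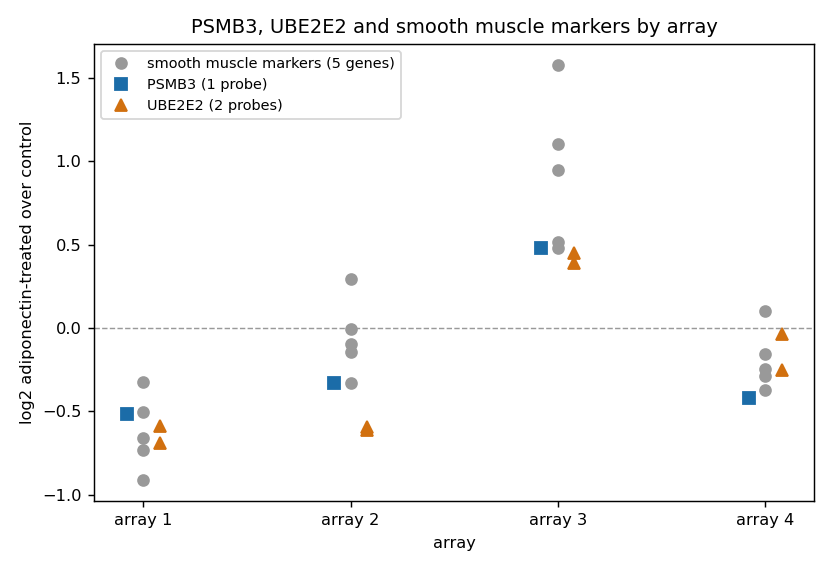
Log2 ratio of treated over control (y axis) on each array (x axis) for PSMB3 (1 probe, squares), UBE2E2 (2 probes, triangles) and 5 smooth muscle markers (grey circles). On array 3 every point is above 0, and on array 1 every point is below 0.

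The 19S cap was represented by a pair of ATPases and 1 ubiquitin receptor. PSMC1 stood at -0.22, -0.01, -0.18 and -0.05, and PSMC5 at 0.07, -0.22, -0.09 and -0.10. Their log2 changes were -0.12 ± 0.13 and -0.09 ± 0.13. By its brightest probe PSMC1 was below 0 on each array, and its change stayed between -0.13 and -0.11 with any 1 array left out. PSMD4, which binds ubiquitin chains on substrates, was at -0.21, 0.05, -0.25 and -0.20, and its log2 change was -0.15 ± 0.13. Array 2 alone was positive.

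The activators dock on the 20S core in place of the 19S cap. PSME1 and PSME2 form one such ring, which is induced by interferon gamma, and PSME3 forms another in the nucleus. PSME2 had the lowest log2 change of the proteasome genes, -0.26 ± 0.14, or 0.833 of the control level, with a 95% interval from -0.61 to 0.08 (limma adjusted p = 0.856). Its arrays read -0.02, -0.29, -0.29 and -0.45, all below 0. Its partner PSME1 read -0.31, -0.02, -0.03 and -0.30, also all below 0, for a log2 change of -0.17 ± 0.14. PSME3 read 0.23, -0.25, 0.11 and -0.17, and its log2 change was -0.02 ± 0.13. It was above 0 on the arrays with treated RNA in Cy5 and below 0 on the others.

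The immunoproteasome genes that the rule leaves out are also interferon-induced, and their products replace the catalytic beta subunits. PSMB8 was at -0.46 ± 0.15, PSMB9 at -0.31 ± 0.19 and PSMB10 at -0.31 ± 0.20 (limma adjusted p of at least 0.856 each). PSMB8 was below 0 on all 4 arrays, while PSMB9 and PSMB10 were at 0.20 and 0.10 on array 1. USP18, which the rule also leaves out, went the other way, at 0.28 ± 0.15. Its arrays read 0.71, 0.17, 0.33 and -0.10. PSMB6, which PSMB9 replaces, was at -0.08 and PSMB7, which PSMB10 replaces, at -0.20. Differences between a subunit and its replacement were not tested.

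The conjugating enzymes differed among themselves more than the proteasome genes did, from -0.22 for UBE2E2 to 0.32 for UBE2D3. UBE2D3, a general E2 that works with many ligases, read 0.23, 0.14, -0.04 and 0.94. Array 4 was the highest. The log2 change of 0.32 ± 0.18 moved to 0.12 without array 4 and to 0.52 without array 2. UBE2K, which builds ubiquitin chains on its own, read 0.20, 0.48, 0.12 and 0.27, with no array at or below 0. Its log2 change was 0.27 ± 0.13, a 1.20-fold signal, with a 95% interval from -0.06 to 0.60 (limma adjusted p = 0.856), and ran from 0.22 to 0.32 with any 1 array left out.

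The other conjugating enzymes lay nearer to 0. UBE2D1, a close relative of UBE2D3, read 0.09, -0.12, 0.08 and 0.12. UBE2J1, which acts at the endoplasmic reticulum on misfolded proteins, read 0.38, -0.30, 0.06 and 0.21. UBE2L3, the E2 of ligases that take ubiquitin onto their own cysteine, read 0.34, -0.24, 0.05 and 0.21. These 3 genes shared their signs, with array 2 alone below 0, and their log2 changes were 0.04 ± 0.13, 0.09 ± 0.16 and 0.09 ± 0.15. Each turned below 0 without array 4. UBE2W, which attaches ubiquitin to the amino terminus of proteins, read -0.08, -0.16, -0.15 and -0.03, for a log2 change of -0.10 ± 0.13.

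USP7, a deubiquitinase that stabilises the ligase MDM2 among other targets, read 0.20, -0.01, -0.16 and -0.05. Its log2 change was -0.0045 ± 0.14, and its 95% interval reached from -0.35 to 0.34. MDM2 itself was at 0.29 ± 0.20. UBB, a gene for several ubiquitin units in a row, was at -0.13 ± 0.14.

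**Figure D3:**
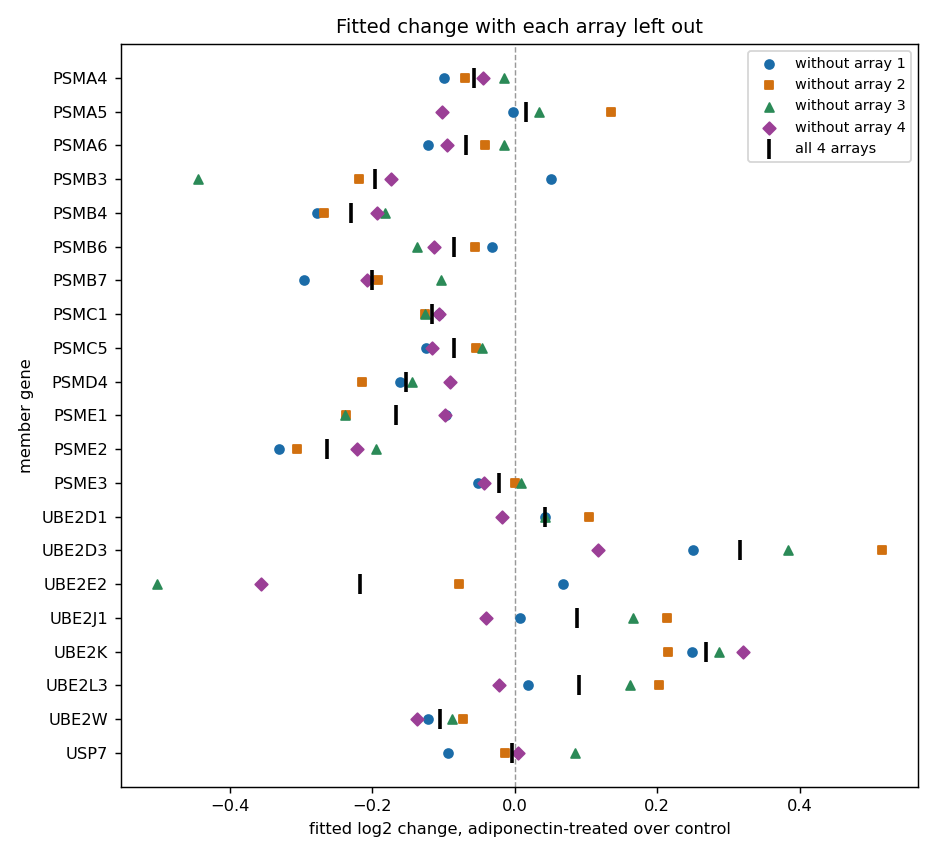
Fitted log2 change (x axis) of each tested gene (y axis) over all 4 arrays (black bar) and with each array left out (symbols). UBE2K and PSMC1 move little, while PSMB3 and UBE2E2 cross 0 without array 1.

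Several probes were tested for 14 of the genes, which gives a second reading of the same RNA but no new replicate. Of 29 proteasome probes, 27 had a log2 change below 0, from -0.30 to 0.02. All 5 probes of PSMB4 were below 0, between -0.29 and -0.10, and all 3 of PSMB6 were, between -0.21 and -0.08. The second probe of PSME1 stood at -0.30 ± 0.13 and was below 0 on all 4 arrays. Other genes whose brightest probe was below 0 on every array had dimmer probes that were not. One probe of PSMB4 was at 0.04 on array 2 and another at 0.44 on array 4. A second probe of PSMB6 was at 0.06 on array 3, and the second of PSMC1 at 0.18 and 0.01 on arrays 3 and 4. All 3 probes of UBE2D3 were above 0, between 0.12 and 0.32, the brightest being the highest. The probes disagreed in sign for USP7 (from -0.11 to 0.20), UBE2J1 (-0.10 and 0.09) and PSMA4 (from -0.06 to 0.0020). Which stretch of the transcript each probe reads is not given in the sources used here.

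**Figure D4:**
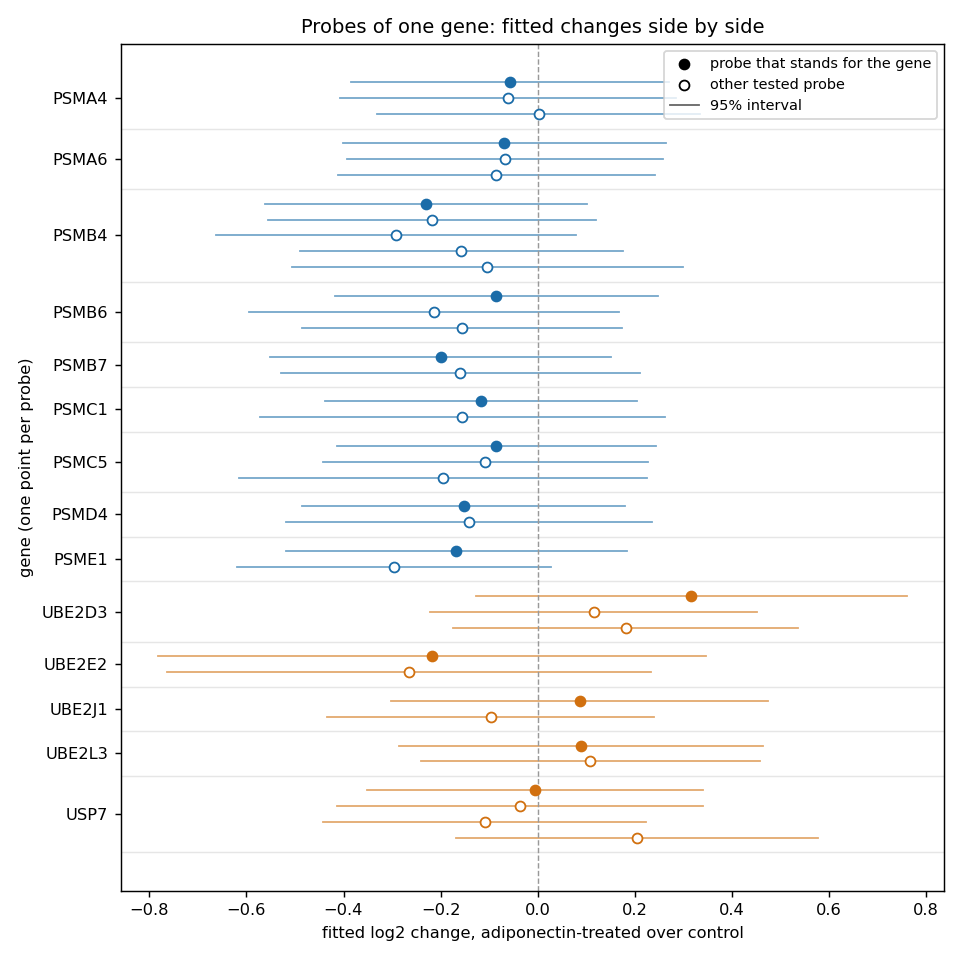
Fitted log2 change (x axis) of every tested probe of the 14 genes with more than 1 (y axis, 1 point per probe), with 95% intervals. Filled points are the probes that stand for a gene, proteasome genes are blue and the others orange. The probes of the proteasome genes lie left of 0 except 1 of PSMA4.

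Control signals of the 21 genes ranged over arrays and genes from 7.08 to 15.5 on the log2 scale. The SD over the 4 control channels had a median of 0.41, from 0.12 for PSMD4 to 0.75 for UBE2D3. The control was in Cy3 on arrays 1 and 3 and in Cy5 on arrays 2 and 4, and the part of the dye in this spread was not tested. The median control signal of the members was 13.5, 13.3, 13.0 and 12.7 on arrays 1 to 4, lowest on array 4, the one array of the other scan. The SE of a log2 change had a median of 0.13 in the members and 0.16 in all named genes, and the 95% intervals of the members reached between 0.32 and 0.56 to either side.

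By array, the median of the 13 proteasome genes was -0.14, -0.12, -0.22 and -0.17, against -0.03, -0.10, 0.05 and -0.02 for all named genes. It lay below 0 and below the median of all named genes on each array. The conjugating enzymes had medians of 0.20, -0.16, 0.06 and 0.21, below 0 on array 2 alone. The 6 tested of 11 macrophage markers had medians of 0.47, -0.16, 1.84 and 0.76, and the 4 tested of 8 epithelial markers -0.43, 1.02, -0.83 and 0.84. The epithelial medians were below 0 on the arrays with treated RNA in Cy5 and above 0 on the others. In all 4 epithelial markers the dye coefficient was larger in size than the treatment coefficient. All 6 macrophage markers had a fitted log2 change above 0, with a median of 0.73, though only 1 of them was above 0 on array 2. In the limma fit 3 of them had an unadjusted p under 0.05, where 3.09% of all named genes were higher. At an adjusted p under 0.05 limma called 0 of them (smallest 0.856). The part of these cell types in the values of the proteasome and conjugating enzyme genes was not tested.

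**Figure D5:**
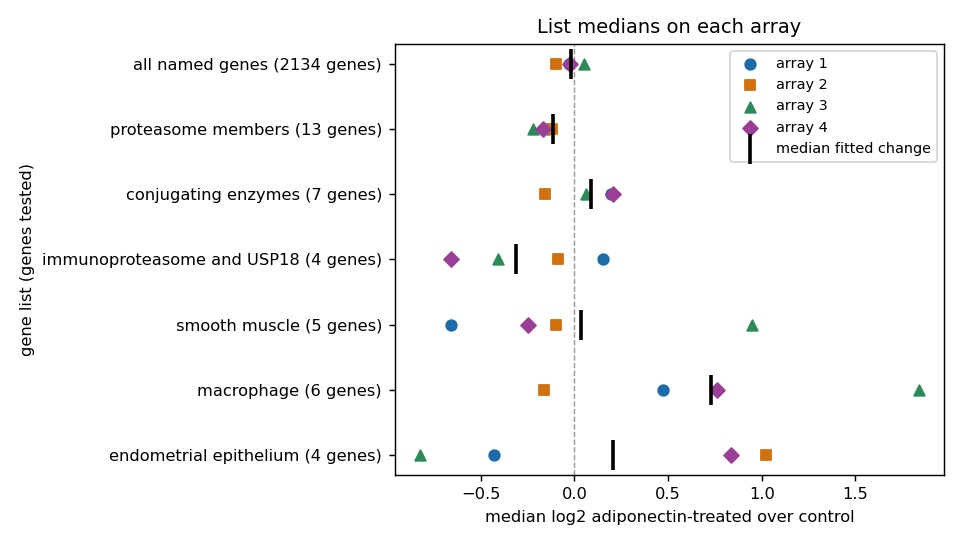
Median log2 ratio of treated over control (x axis) of gene lists (y axis, with the number of genes tested) on each array (symbols), with the median fitted change (black bar). The proteasome medians lie between -0.22 and -0.12 on the 4 arrays, while the macrophage medians run from -0.16 to 1.84.

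Of 99 further genes of the pathway, such as ligases, other deubiquitinases, ubiquitin-like proteins and shuttles, 21 could be named on the array and 20 were tested. Their median was 0.04, with 11 above and 9 below 0, and limma called none at an adjusted p under 0.05. The ligase UBE3A was the 1 gene at an unadjusted p under 0.05, at 0.40 ± 0.16, with array 3 at about 0 and array 4 at 0.95. That is 1 of 20 genes higher and 0 lower in the limma fit, beside 3.09% and 2.44% of all named genes, and nothing is read from it. Of the 7 ligases tested, 3 were above 0 and 4 below. FBXO32, a ligase of muscle protein loss, stood at -0.30 ± 0.13 and TRIM21 at -0.36 ± 0.16 (limma adjusted p = 0.856 each). Both were below 0 on all 4 arrays, where 7.45% of all named genes were. TRIM63, another ligase of muscle protein loss, could not be named. PSMG1, a chaperone of 20S assembly, was at 0.26 ± 0.15.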

How the data were processed

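The deposited scanner files come from Agilent Feature Extraction 10.7.3.1, per the file headers. The LogRatio column, a log10 ratio of Cy5 over Cy3 made by the authors' software from background-subtracted, dye-normalised intensity, was divided by log10(2) and turned on the 2 arrays with treated RNA in Cy3. The deposited series table holds log2 ratios; its column medians were -0.10, 0.13, -0.14 and 0.16, and 100% of the values of 18169 bright probes lay within 0.01 of the turned scanner ratios. How its dim values were made stays unknown. Level is log2 of the control channel's processed intensity. Outlier-marked spots were left out and spots of a probe averaged. The test took the 22133 of 43603 probes that had a ratio on every array and, in the treated or the control channel, exceeded background clearly on 3 arrays or more. RefSeq accessions were matched, for names only, to a table of assembly Sscrofa11.1 (6700 of 7125 probes). Coordinates and sequences are left out: no build and no probe sequence is given in the sources used here.

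Ratios were fitted with limma 3.58.1 (R 4.3.3; lmFit, eBayes; treatment and dye coefficients; two-sided; Benjamini-Hochberg over all tested probes, threshold 0.05), and the fit was tested on simulated data. By the file headers, array 4 belonged to scan 2 and the others to scan 1. Slides were not identified beyond the scan. Each array held both conditions. The alternatives were normexp (offset 50) with loess, median centring, no dye term, other filters on dim probes, the series table, the mean over a gene's probes and the omission of each array. One gene that the rule covers is not reported here. Members and lists were chosen with earlier results of these data known. Genes were named per role by the 2 highest and 2 lowest changes, an unadjusted p under 0.05, a fixed set of enzymes or disagreeing probes; the rest are given for completeness.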

Additional observations from a re-analysis of the deposited data

Results flagged for a closer look

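Among 45 groups of 4 values, 3 held a value far from its neighbours, and about 2.25 would by chance. The ratio of PSMD4 was 0.049 on array 2, while arrays 1, 3 and 4 lay between -0.25 and -0.20. The ratio of UBE2D1 was -0.12 on array 2, with arrays 1, 3 and 4 between 0.08 and 0.12. For PSMA4 the control signal (log2) was 11.98 on array 4, against 12.5 to 12.6 elsewhere.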

How the results depend on the processing

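The 4 arrays limit the precision: the members' 95% intervals reached a median of 0.33 to either side. Of the 11 alternatives, the fit with no dye term, the other filters and the series table use the same ratios and could not turn a sign. Median centring moved all genes by the same small amount. Over all 11 alternatives, 13 of the 21 genes kept their sign. The others turned when an array was left out: PSMA5 (-0.10 to 0.13), PSMB3 (-0.44 to 0.051), PSME3 (-0.052 to 0.0090), UBE2D1 (-0.018 to 0.10), UBE2E2 (-0.50 to 0.068), UBE2J1 (-0.040 to 0.21), UBE2L3 (-0.022 to 0.20) and USP7 (-0.093 to 0.084). With normexp and loess PSMA5 was at -0.0067 and USP7 at 0.042. With all probes averaged, UBE2J1 was at -0.0051 and USP7 at 0.014. Sizes also moved with normexp and loess, in both directions. PSMB4 went from -0.23 to -0.11, PSMB3 from -0.20 to -0.060 and UBE2E2 from -0.22 to -0.12. Away from 0, PSMB6 went from -0.08 to -0.13 and UBE2L3 from 0.09 to 0.17. After an omission, the remaining array of that dye orientation weighs as much as both arrays of the other.

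Calls over all probes ran from 0 to 12 with an array left out, the 12 without array 3 and none of them a member (smallest member adjusted p 0.443); the other alternatives called 0. Members lower at an unadjusted p under 0.05 numbered 1 with loess (PSME2), 3 with no filter (PSMB4, PSMC1 and PSME2) and 0 to 2 with an array left out, beside 2.44%, 3.88% and, without array 3, 7.69% of all named genes. Higher ones numbered 1 with loess and 1 with no filter, UBE2K both times, beside 3.66% and 3.51%. The causes were not tested. Conjugating enzymes above 0 numbered 2 to 6 with an array left out. The median of the 21 genes ran from -0.098 to -0.046 with an array left out. Over the 11 alternatives, several of which use the same ratios, the proteasome median stayed between -0.15 and -0.09. No centring moved the median of all named genes by 0.1. A fit with the scan as a random block was not run, because its correlation could not be estimated. Within scan 1, the values without array 4 apply.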

Other observations

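UCHL1, a deubiquitinase of another family, was singled out after its value was seen. One of its 2 probes read -5.37 on array 2, with a control signal of 8.88 and a treated signal of 3.51 (log2) that was not well above background. The other probe read -0.98 on that array, with a treated signal of 7.88. On arrays 1, 3 and 4 the 2 probes read -0.41, -0.61 and 0.15 against -0.67, -0.39 and 0.10.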
